A study of Homo sapiens with 16 samples.

Results

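IMR5-75, a human neuroblastoma cell line that carries extra copies of the MYCN oncogene, was compared after treatment with both DAC and EPZ-6438 and after solvent alone. The comparison rests on 4 of the series' 16 RNA libraries: 2 of IMR5-75 cells given DMSO and 2 of IMR5-75 cells given DAC at 1 µM for 72 h together with EPZ-6438 at 1 µM for 96 h. Of 23459 genes in the deposited count table, 15967 passed a filter on low counts and were tested. The other libraries, 2 for each group, were IMR5-75 given either drug alone and Be(2)-C, another MYCN-amplified neuroblastoma line, given DMSO, DAC, EPZ-6438 or both at the same doses and times. All cells grew in RPMI medium with 10% fetal calf serum. Each line stands for a single tumour-derived culture, and the labels do not say whether the 2 libraries of a group came from separate cultures, so the p-values measure the spread between libraries, which may be technical.

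DAC is not spelled out in the labels; in this field the abbreviation usually stands for decitabine, a cytidine analogue that is built into DNA and traps DNA methyltransferases there, so that methylation is lost as cells divide. EPZ-6438, also called tazemetostat, blocks the catalytic site of EZH2, the enzyme of Polycomb repressive complex 2 that methylates lysine 27 of histone H3. Both marks keep genes silent: DNA methylation at the promoters of germ cell genes and of imprinted alleles, and the Polycomb mark at genes of development and differentiation. Neuroblastoma arises from precursors of the sympathetic nervous system, and its cells keep parts of that programme. Neither DNA methylation nor the histone mark was measured here.

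The 8 IMR5-75 libraries held between 12160472 and 14032155 counts each. The DMSO libraries had 13381 and 13663 genes with at least 10 counts, and the libraries with both drugs had 14962 and 15127. Levels are given as CPM, counts scaled to 1000000 per library with TMM factors (the trimmed mean of M values), in the order replicate 1, replicate 2. They are not corrected for gene length, so they compare libraries and not genes. Across genes, the 2 replicates correlated with a Pearson r of 0.990 under DMSO and 0.991 under both drugs (log2 CPM, genes are not independent replicates). The sympathetic markers HAND2 (452 and 539.9 CPM), GATA3 (39.0 and 36.5 CPM) and ISL1 (46.7 and 47.8 CPM) were present under DMSO, while TH, the first enzyme of catecholamine synthesis, stood at 1.18 and 0 CPM.

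The promoters of 5 genes that carry the main patterns are shown first, because DNA methyltransferases modify the cytosine of a CG, a C followed by a G on the same strand. TDRD9 (a helicase of the piRNA pathway in germ cells), MAGEB2 (a cancer-testis antigen) and L1TD1 (an RNA-binding protein of pluripotent cells) had at most 3 counts over both DMSO libraries and between 661 and 2035 over both treated libraries. HIST1H1B and HIST1H1E encode linker histones and moved in opposite directions. The windows run 5′ to 3′ on the gene's strand, from 250 bases before to 50 after the RefSeq start (build GRCh38.p14), with each CG in capitals. They are chr14:103928206-103928505 on the plus strand (TDRD9), chrX:30215313-30215612 plus (MAGEB2), chr1:62194599-62194898 plus (L1TD1), chr6:27867539-27867838 minus (HIST1H1B, now H1-5) and chr6:26156079-26156378 plus (HIST1H1E, now H1-4). A CG reads the same on both strands.
TDRD9: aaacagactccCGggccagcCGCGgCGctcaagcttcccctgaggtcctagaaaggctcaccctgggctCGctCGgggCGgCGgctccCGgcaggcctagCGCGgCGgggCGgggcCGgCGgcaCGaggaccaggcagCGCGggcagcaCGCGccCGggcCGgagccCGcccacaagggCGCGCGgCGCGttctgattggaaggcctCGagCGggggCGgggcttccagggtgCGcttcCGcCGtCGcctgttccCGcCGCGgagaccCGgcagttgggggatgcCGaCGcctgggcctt
MAGEB2: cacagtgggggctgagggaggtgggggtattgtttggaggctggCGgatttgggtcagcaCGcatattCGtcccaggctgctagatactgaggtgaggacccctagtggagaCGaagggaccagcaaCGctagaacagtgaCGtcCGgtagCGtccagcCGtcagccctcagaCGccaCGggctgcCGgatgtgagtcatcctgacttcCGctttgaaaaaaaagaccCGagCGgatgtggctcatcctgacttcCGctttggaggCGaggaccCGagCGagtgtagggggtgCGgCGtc
L1TD1: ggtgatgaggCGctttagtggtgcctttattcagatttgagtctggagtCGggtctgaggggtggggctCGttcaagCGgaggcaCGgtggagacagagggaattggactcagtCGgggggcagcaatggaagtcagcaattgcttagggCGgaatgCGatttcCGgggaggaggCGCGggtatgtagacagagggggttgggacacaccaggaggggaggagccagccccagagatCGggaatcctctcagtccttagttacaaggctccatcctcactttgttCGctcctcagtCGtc
HIST1H1B: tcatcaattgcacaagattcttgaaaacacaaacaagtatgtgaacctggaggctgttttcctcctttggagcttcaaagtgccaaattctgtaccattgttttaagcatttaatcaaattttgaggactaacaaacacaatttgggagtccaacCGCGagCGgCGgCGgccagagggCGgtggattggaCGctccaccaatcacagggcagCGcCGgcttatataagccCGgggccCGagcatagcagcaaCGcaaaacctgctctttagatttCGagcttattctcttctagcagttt
HIST1H1E: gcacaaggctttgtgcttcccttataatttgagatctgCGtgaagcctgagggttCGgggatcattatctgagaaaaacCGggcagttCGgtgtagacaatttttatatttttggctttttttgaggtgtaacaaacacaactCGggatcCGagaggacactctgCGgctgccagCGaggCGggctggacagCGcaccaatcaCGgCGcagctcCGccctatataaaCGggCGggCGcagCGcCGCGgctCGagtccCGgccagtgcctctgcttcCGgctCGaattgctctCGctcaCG
The TDRD9 window holds 41 CG, a number reached by 6.69% of the 35116 RefSeq windows of that length. MAGEB2 has 21 (reached by 39.5%), L1TD1 14 (50.3%), HIST1H1B 13 (51.7%) and HIST1H1E 25 (32.0%). At least 1 CG stands in 96.0% of all windows and the median is 14, so the letters describe these 5 promoters and set none of them apart except by count. A comparison of CG content between called and other genes was void: a window was found for only 74.6% of the tested genes and 70.8% of the called genes with at most 3 DMSO counts, under the 80% needed.

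Under both drugs 7370 of the 15967 tested genes differed from DMSO (46.2%; adjusted p under 0.05 in edgeR's quasi-likelihood test with Benjamini-Hochberg adjustment over all tested genes). Of these, 4109 rose (25.7% of tested genes) and 3261 fell (20.4%). The sizes were uneven: 2594 genes rose at least 2-fold and 1420 at least 4-fold, whereas 429 fell at least 2-fold and 23 at least 4-fold. The median log2 change over all tested genes was 0.03. At an unadjusted p under 0.05 the count was 8352. In 4100 of the called genes both treated libraries lay above both DMSO libraries, in 3249 both lay below, and in 21 the groups overlapped. Such separation is shared by nearly all called genes and sets none of them apart. The members of each gene list below are read against the 25.7% and 20.4%. Some genes stand in more than 1 list, so the counts of different lists are not independent. CDKN1A is both a p53 target and a G1 regulator, BTG2 is a p53 target and an immediate early gene, and LDHA is in the MYC-driven and glycolysis lists.

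**Figure D1:**
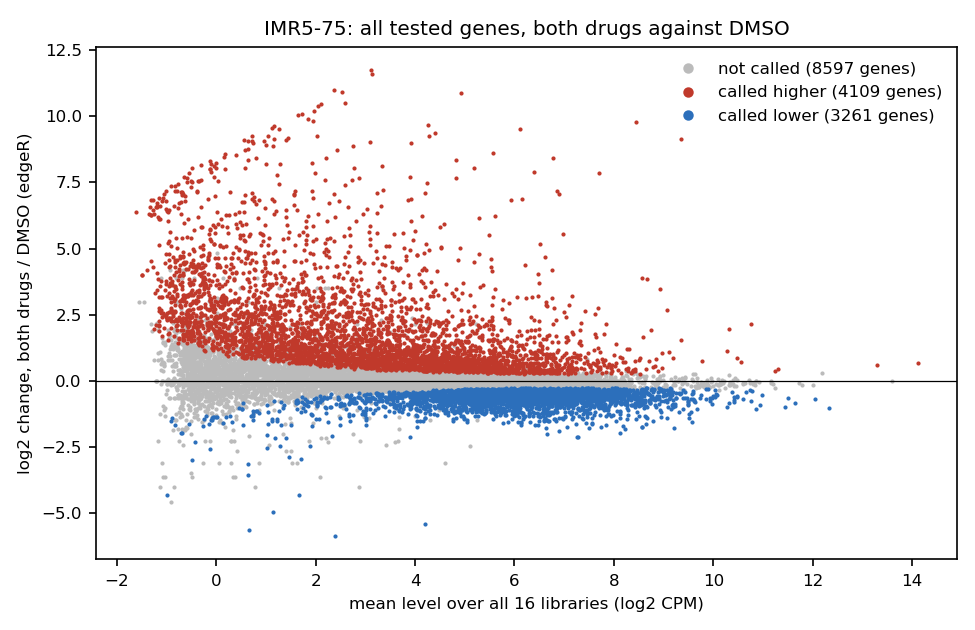
Log2 change under both drugs against DMSO in IMR5-75 (y axis) plotted over the mean level of each of 15967 tested genes in all 16 libraries (x axis, log2 CPM); red points are the 4109 genes called higher, blue the 3261 called lower, grey the rest. The largest changes are upward and sit at low mean levels, and the genes called lower lie mostly within a 2-fold fall.

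Genes that were nearly silent in DMSO made up a large group. Of 892 tested genes with at most 3 counts over both DMSO libraries, 562 rose under both drugs, and 171 of these had no count at all under DMSO. A gene so low in DMSO entered the test through the groups in which it is higher, so this share is a description only. The same holds for such genes within the lists below: they number 27 among cancer-testis genes, 18 among protocadherins, 16 each among germline and histone genes and at most 5 in any other list. In comparisons that use the same DMSO libraries, 503 of the 892 genes rose after DAC alone and 8 after EPZ-6438 alone. Where DMSO held no count, a fold is given as a lower bound, computed as if that group had held 3 counts; with 1 DMSO library in place of 2 such a bound shrinks to 0.467 (without DMSO 1) or 0.533 (without DMSO 2) of its value.

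DAZL, an RNA-binding protein that germ cells need to form, had 1 and 0 counts in the DMSO libraries and 101 and 86.5 CPM under both drugs, the highest treated level of this group. The piRNA pathway gene MAEL went from 0.221 and 0 to 79.5 and 88.4 CPM and L1TD1 from 0.147 and 0 to 72.7 and 71.6 CPM. For MAEL this is 714-fold higher (95% interval 244 to 3463), and for L1TD1 919-fold higher (95% interval 254 to 7592). All DMSO counts of both genes (3 and 2) were in DMSO 1, so the sizes depend on the library: the fitted log2 change was 9.36 for MAEL (12.98 without DMSO 1, 8.49 without DMSO 2) and 9.67 for L1TD1 (12.76 and 8.83), and both were called each time; without DMSO 1 the remaining library is at 0 and the fitted value is no bound. In each of these genes both treated libraries lay above both DMSO libraries, as in 4100 of the 4109 genes called higher. The cancer-testis antigen MAGEA4 had no count under DMSO and 32.6 and 37.6 CPM under both drugs, at least 299-fold higher. The testis histone HIST1H2BA also had none and reached 28.1 and 36.3 CPM, at least 274-fold higher. The linker histone HIST1H1B stood at 0.0737 and 0 CPM and then 33.3 and 54.2 CPM. TDRD1 and TDRD9, Tudor proteins of the piRNA pathway, went from 0.0737 and 0.168 to 32.0 and 28.2 CPM and from 0.147 and 0 to 22.7 and 24.1 CPM. MAGEB2 (0 and 0.252 to 25.5 and 26.4 CPM) and PNMA5 (0 and 0.0841 to 26.3 and 26.0 CPM) complete the 10 with the highest treated level. Among the genes with the largest fitted increases were also TKTL1, related to the sugar enzyme transketolase (at least 179-fold higher), DCAF4L2 (at least 169-fold higher), RPL10L, a testis copy of a ribosomal protein gene (at least 126-fold higher), HENMT1, which methylates the ends of piRNAs (at least 122-fold higher), CTAG2 (at least 117-fold higher), LOC100129520 (at least 104-fold higher), MAGEC2 (at least 94.8-fold higher), HIST1H2AA (at least 93.0-fold higher) and RFPL4B (at least 82.5-fold higher); all had 0 counts in both DMSO libraries.

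**Figure D2:**
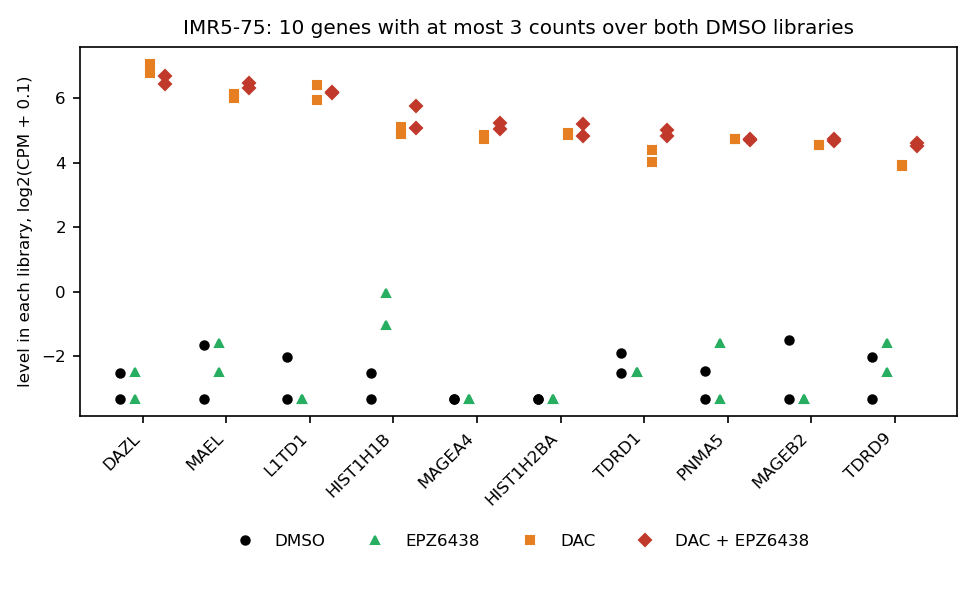
Level of 10 nearly silent genes in each IMR5-75 library, as log2(CPM + 0.1), for DMSO (black circles), EPZ-6438 (green triangles), DAC (orange squares) and both drugs (red diamonds), 2 libraries each. The DAC and both-drug libraries sit far above the DMSO and EPZ-6438 libraries in every gene shown.

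Cancer-testis genes, which are normally active in testis and silent elsewhere, rose as a group. Of 65 in the table, 32 were tested; 17 had no count in any of the 16 libraries. Of the 32, 30 rose and none fell, but 27 had at most 3 counts under DMSO and passed the filter through treated groups. Their median log2 change was 7.28, or 5.65 with the genes at 0 set to their bounds. MAGEB1, MAGEA3, MAGEA6, PAGE2B, VCX3A, LUZP4 and CTCFL were among those that rose; MAGEA, PAGE and VCX genes have near-identical copies whose reads the counting could split. PRAME went from 0.442 and 0.0841 to 8.14 and 9.27 CPM. The 2 tested members not called were SSX3, with 0.0737 and 0 and 0.22 and 0.206 CPM, and CTNNA2, a broadly expressed neural gene, with 17.3 and 17.6 and 14.8 and 13.9 CPM. After DAC alone 31 of the same 32 rose (19.9% of tested genes rose there) and after EPZ-6438 alone none did (1.63%).

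Germline and meiosis genes showed a more mixed picture: of 45 tested (64 in the table), 34 rose and 4 fell, with a median log2 change of 2.86, and 16 of the 45 had at most 3 counts under DMSO and passed the filter through groups in which they are higher. The members that rose include the piRNA pathway genes PIWIL2 (0.442 and 0.252 to 23.8 and 24.6 CPM), DDX4 and TDRD12, the meiotic chromosome proteins HORMAD1, SYCP3 and REC8, and the bromodomain protein BRDT of spermatids. REC8, a meiotic cohesin subunit, was already at 49.4 and 59.5 CPM under DMSO and reached 162 and 158 CPM (log2 change 1.56 ± 0.19, adjusted p = 1.24e-06, edgeR). The 4 that fell were PLD6, TEX19, LIN28B and MSH5. MSH5 lost its call without any 1 of the 4 libraries (adjusted p 0.0846 to 0.163) and TEX19 without DMSO 2, both drugs 1 or both drugs 2 (0.0931 to 0.143). By DESeq2's Wald test neither MSH5 (adjusted p 0.1997) nor TEX19 (0.1125) was called, and MSH5 was not called with no filter (0.1081, edgeR). LIN28B, an RNA-binding protein that blocks maturation of let-7 microRNAs, went from 148 and 127 to 86.4 and 74.2 CPM (-0.77 ± 0.15). Without DMSO 2 or without the library of both drugs 2, only 2 members still fell.

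Clustered protocadherins, cell-surface proteins encoded in tandem arrays that give neurons individual surface identities, were called higher in most cases. Of 54 tested genes (55 in the table), 51 rose and none fell; the median log2 change was 3.72, or 3.57 with bounds. Of the 54, 18 had at most 3 counts under DMSO and passed the filter through groups in which they are higher. PCDHB5 went from 0.295 and 0.168 to 18.7 and 21.6 CPM (6.36 ± 0.31, adjusted p = 2.23e-12, edgeR), PCDHB15 from 0.589 and 0.336 to 9.24 and 9.13 CPM (4.26 ± 0.28) and PCDHB2 from 0.147 and 0.0841 to 15.0 and 14.6 CPM (126-fold higher (95% interval 42.7 to 611)). Levels stayed low: the treated means of the members that rose ran from 0.387 to 20.2 CPM. The 3 not called were PCDHA8, PCDHAC2 and PCDHGC5. PCDHAC2, one of the members with the highest DMSO level, stood at 10.2 and 11.52 CPM and then at 10.9979 and 11.47 CPM. Members of the alpha and of the gamma array share their last exons, and reads there cannot be assigned to a single gene. DAC alone raised 52 of the 54 and EPZ-6438 alone none.

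Imprinted genes, expressed from 1 parental copy, were higher in 19 of 29 tested members and lower in 1, with a median log2 change of 1.21. MEST went from 28.9 and 30.3 to 198 and 191 CPM (2.72 ± 0.13, adjusted p = 2.11e-12, edgeR). NNAT, a membrane protein of developing neurons, rose from 387 and 367 to 1299 and 1526 CPM (1.91 ± 0.13), and the growth-limiting RNA H19 from 15.4 and 11.6 to 57.4 and 61.7 CPM (2.14 ± 0.16). CDKN1C, a CDK inhibitor, rose from 4.42 and 6.89 to 31.7 and 37.1 CPM (2.61 ± 0.30). The member that fell was IGF2, the neighbour of H19, with 13 and 0 counts under DMSO and none under both drugs; the call rests on DMSO 1, since the other 3 libraries had no count, and the adjusted p was 0.0873 and 0.0965 without either treated library. Genes reported as methylated in neuroblastoma formed a further list: 22 of 30 rose and 2 fell (median 1.39). The matrix protein TGFBI went from 0.0737 and 0.0841 to 21.3 and 19.6 CPM (260.1-fold higher (95% interval 71.7 to 2153)), and the decoy death receptor TNFRSF10D from 0.442 and 0 to 31.9 and 36.0 CPM. RASSF1, whose transcripts the table does not separate, fell (-0.69 ± 0.17). KRT19, the other that fell, had 14 and 1 counts under DMSO and none under both drugs; without DMSO 1 its adjusted p was 0.306.

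Replication-dependent histone genes went in both directions. These genes lie in clusters, are transcribed in S phase and give messages without a poly(A) tail, which libraries depleted of ribosomal RNA retain. Of 65 tested (73 in the table), 24 rose and 37 fell (median log2 change -1.12). The directions were separated by DMSO level: the members that rose had DMSO means from 0 to 1.46 CPM, whereas those that fell had 2.32 to 1688 CPM. Part of this was fixed in advance, since 16 of the 65 had at most 3 counts under DMSO and could hardly be called lower. The summed level of the 65 fell from 14502 and 21428 CPM to 5691 and 8010.3 CPM; the replicates differ, and the groups do not overlap. HIST1H2BF went from 218 and 265 to 46.0 and 64.1 CPM (-2.13 ± 0.18, adjusted p = 4.98e-09, edgeR) and HIST1H2BL from 252 and 393 to 58.0 and 90.6 CPM (-2.12 ± 0.19). The linker histone HIST1H1E, whose promoter is printed above, went from 1216 and 2022 to 629 and 903 CPM (-1.08 ± 0.29, adjusted p = 0.0043); the call was lost without DMSO 2 (-0.68, adjusted p = 0.0932) and without both drugs 1 (-0.79, adjusted p = 0.0889). In contrast, HIST1H1B rose from 0.0737 and 0 to 33.3 and 54.2 CPM, HIST1H1D from 0.147 and 0 to 16.4 and 25.0 CPM, and HIST1H3A and HIST1H4L from no count to 4.77 and 10.4 and to 2.79 and 5.22 CPM. DAC alone gave 23 higher and 37 lower, and EPZ-6438 alone 0 and 1 (0.344% of tested genes fell there). Several of these genes have near-identical coding sequences, so single members are uncertain.

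**Figure D3:**
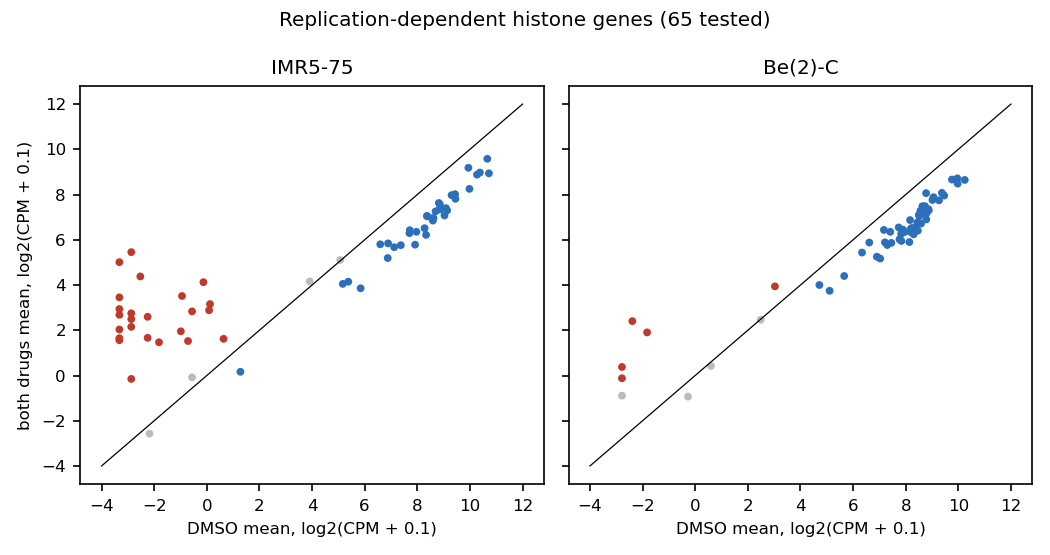
Mean level of 65 replication-dependent histone genes under DMSO (x axis) and both drugs (y axis), as log2(CPM + 0.1), in IMR5-75 (left) and Be(2)-C (right); the line marks equal levels, red genes rose and blue genes fell. In IMR5-75 the genes near 0 under DMSO lie above the line and the abundant ones below it; in Be(2)-C 5 rose and 56 fell.

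Genes of DNA replication and mitosis fell throughout. All 53 replication genes tested fell, with a median log2 change of -1.02 and a range from -1.51 to -0.42. MCM10, which helps start replication forks, went from 216 and 213 to 79.0 and 77.5 CPM (-1.46 ± 0.11, adjusted p = 1.42e-09, edgeR), the primase subunit PRIM1 from 118 and 107 to 41.1 and 42.1 CPM (-1.44 ± 0.12) and the chromatin assembly factor CHAF1A from 152 and 172 to 68.3 and 64.8 CPM (-1.28 ± 0.11). For MCM10, PRIM1 and CHAF1A the treated libraries lay below both DMSO libraries, as in 3249 of the 3261 genes called lower. All 59 mitosis genes fell too (median -1.25). NCAPH, a condensin subunit, went from 134 and 129 to 40.9 and 42.8 CPM (-1.65 ± 0.11), the checkpoint kinase BUB1 from 199 and 196 to 60.7 and 64.5 CPM (-1.65 ± 0.12) and AURKA, a spindle kinase that also stabilises MYCN protein, from 145 and 138 to 49.9 and 51.4 CPM (-1.48 ± 0.11). DAC alone lowered 51 and 55 members of these lists (13.8% of tested genes fell there), EPZ-6438 alone 5 and 1. In bulk RNA fewer cells in cycle and less of these transcripts per cell cannot be told apart.

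G1 cyclins and their regulators were lower in 16 of 27 members and higher in 4. CDC25A, a phosphatase that activates CDKs, went from 100.1 and 113 to 41.4 and 42.6 CPM (-1.34 ± 0.12) and the transcription factor E2F1 from 181 and 241 to 76.8 and 88.2 CPM (-1.36 ± 0.13). The 4 that rose were the CDK inhibitors CDKN1A, CDKN1C and CDKN2B and the oncogene MYC. MYCN itself fell from 1743 and 1999 to 1189 and 1189 CPM (-0.65 ± 0.14, adjusted p = 0.000798, edgeR), while MYC stood at 0.221 and 0.0841 and then 1.98 and 2.13 CPM. Of 48 genes of ribosome biogenesis and other MYC-driven growth, 43 fell and none rose (median -0.62). NCL, nucleolin, went from 1159 and 1054 to 645 and 559 CPM (-0.88 ± 0.11) and MTHFD2, a mitochondrial folate enzyme, from 494 and 487 to 229 and 234 CPM (-1.08 ± 0.12). TERT, the catalytic subunit of telomerase, went from 5.97 and 11.4 to 0.587 and 1.58 CPM (-2.97 ± 0.38, adjusted p = 2.19e-06); without the library of both drugs 2 its log2 change was -3.81.

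Glycolysis and hypoxia genes fell in 18 of 32 cases and rose in 5 (median -0.53). LDHA, which turns pyruvate into lactate, had the largest fall of the list, from 1238 and 1261 to 383 and 373 CPM (-1.73 ± 0.10, adjusted p = 4.34e-11, edgeR). ENO1, PGK1, ALDOA, HK2 and GAPDH, further enzymes of the pathway, also fell; GAPDH went from 4867 and 5645 to 2879.7 and 3646 CPM. The 5 that rose were NDRG1 (2.11 ± 0.23), EGLN3 (1.31 ± 0.14), the lactate exporter SLC16A3, the neuronal enolase ENO2 and HK1; HK1 lost its call without DMSO 1, DMSO 2 or both drugs 2 (adjusted p 0.0902, 0.137 and 0.0544). HK1 also missed the threshold with IMR5-75 fitted alone (adjusted p 0.051, edgeR) and with the 4 libraries alone (0.0634). After DAC alone 16 members fell and after EPZ-6438 alone 11.

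The p53 target list rose in 29 of 37 members and fell in 1, with a median log2 change of 1.24. CDKN1A, which encodes the CDK inhibitor p21, went from 94.4 and 105 to 623 and 714 CPM (2.75 ± 0.15, adjusted p = 1.24e-11, edgeR). BTG2, an antiproliferative factor, rose from 42.7 and 49.3 to 177 and 168 CPM (1.91 ± 0.11), and PLK2, a stress-induced kinase, from 39.0 and 35.8 to 120.2 and 118 CPM (1.67 ± 0.11). In all 3 genes the treated libraries lay above both DMSO libraries, as in 4100 of the 4109 genes called higher. MDM2, which marks p53 for degradation, rose less, from 279 and 212 to 425 and 345 CPM (0.65 ± 0.15). PMAIP1, which encodes the BH3 protein NOXA, was the member that fell (103 and 101 to 74.9 and 60.1 CPM). DAC alone raised 32 members and EPZ-6438 alone 7.

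Death receptors, caspases and BCL2 family genes rose in 15 of 32 cases and fell in 4 (median 0.29). The TRAIL receptor TNFRSF10A had no count under DMSO and 5.43 and 5.70 CPM under both drugs (at least 47.3-fold higher). TNFRSF10D reached 31.9 and 36.0 CPM from 0.442 and 0, and CFLAR, which restrains caspase 8, 5.43 and 6.52 from 0.295 and 0.336. CASP8 went from 1.25 and 1.26 to 5.499 and 2.82 CPM (1.71 ± 0.38) and FAS from 4.94 and 4.46 to 13.6 and 12.4 CPM (1.46 ± 0.21). The other TRAIL receptor with a death domain, TNFRSF10B, was not called (272 and 268 and 273 and 257 CPM). BCL2, BID, MCL1 and PMAIP1 were those that fell. MCL1 passed at the main settings only (adjusted p 0.0591 to 0.431 in the alternatives), and PMAIP1 not without both drugs 2 (0.0971).

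Interferon-stimulated genes rose in 28 of 38 cases and fell in 3 (median 1.74, 1.65 with bounds). PARP14 went from 0.295 and 0.168 to 4.77 and 5.08 CPM, HERC5, the ligase for ISG15, from 10.0 and 8.49 to 45.7 and 42.4 CPM (2.25 ± 0.16, adjusted p = 8.31e-10, edgeR) and LGALS3BP from 12.4 and 13.96 to 46.9 and 52.1 CPM (1.91 ± 0.17). ISG15, IFI44, PARP9 and IRF9 rose as well. USP18, which dampens interferon signalling, fell from 33.5 and 37.3 to 13.5 and 18.2 CPM. Antigen presentation genes rose in 11 of 22 cases and fell in none, although without DMSO 2 only 7 rose. The summed level of these 22 genes hardly moved, at 1955 and 1889 CPM under DMSO and 1948 and 1902 CPM under both drugs. Among them 5 had at most 3 counts over both DMSO libraries. NLRC5, a transactivator of class I genes, rose from 2.14 and 1.77 to 5.28 and 8.03 CPM (1.76 ± 0.28) and the peptide trimmer ERAP1 from 15.9 and 12.4 to 28.4 and 26.1 CPM (0.94 ± 0.15). B2M, the light chain of class I molecules, was not called (178 and 172 and 182 and 198 CPM).

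Immediate early genes, the fast response to growth signals, rose in 23 of 32 cases and fell in none (median 1.06). The MAP kinase phosphatases DUSP2 (5.75 and 5.38 to 40.1 and 53.8 CPM, 3.07 ± 0.22) and DUSP4 (17.3 and 13.7 to 71.3 and 66.5 CPM, 2.15 ± 0.13) and BTG2 had the smallest adjusted p of the list (at most 4.21e-10, edgeR). FOS rose from 2.36 and 4.62 to 12.5 and 18.1 CPM. DAC alone raised 25 members and EPZ-6438 alone 6.

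Neurosecretory genes, which encode the proteins and peptides of dense-core granules, rose in 20 of 25 cases and fell in none (median 2.28, 2.14 with bounds). CHGA, chromogranin A, went from 180.1 and 175 to 739.8 and 827 CPM (2.14 ± 0.13) and CHGB from 15.99 and 23.3 to 131 and 121 CPM (2.68 ± 0.15, adjusted p = 1.24e-11, edgeR). SCG2, secretogranin II, rose from 6.41 and 5.21 to 86.7 and 79.7 CPM (3.83 ± 0.19) and the neuropeptide ADCYAP1 from 1.47 and 1.35 to 30.4 and 33.4 CPM (4.49 ± 0.19). NPY, VIP and PENK were low under DMSO and rose; the neuropeptide GAL was not called. Neuronal maturation genes rose in 34 of 55 cases and fell in 8 (median 0.86). The intermediate filaments PRPH (19.2 and 17.7 to 249.5 and 297 CPM, 3.89 ± 0.18), NEFM (49.0 and 39.3 to 301 and 255 CPM, 2.65 ± 0.14) and NEFH (0.81 and 0.925 to 21.0 and 20.3 CPM, 4.56 ± 0.30) led by adjusted p. Among the others that rose were the neurotrophin receptors NTRK2, NTRK3 and NGFR and the growth cone proteins STMN2 and GAP43. The 8 that fell include the RNA-binding protein ELAVL4 (-0.57 ± 0.12); their number was 2 to 4 without DMSO 1, without both drugs 1 or without both drugs 2.

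The noradrenergic identity list stood nearer the background, with 11 of 32 members higher (34.4%) and 9 lower (28.1%) and a median of 0.11. DBH, which makes noradrenaline, rose from 1.84 and 1.18 to 13.9 and 14.3 CPM (3.19 ± 0.29), HEY1, a Notch effector, from 1.77 and 1.01 to 15.5 and 15.0 CPM (3.42 ± 0.23) and the receptor RET from 2.21 and 1.09 to 9.75 and 6.39 CPM. The transcription factors SOX11, which went from 356 and 338 to 186 and 148 CPM (-1.06 ± 0.12, adjusted p = 4.56e-07, edgeR), and MEIS2 (-0.92 ± 0.11) fell. PHOX2A, GATA3 and ISL1 were not called; PHOX2A had 128 and 166 CPM under DMSO and 137 and 152 under both drugs.

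Mesenchymal and matrix genes rose in 36 of 55 cases and fell in 5 (median 0.89). COL3A1 went from 54.0 and 52.8 to 428 and 409 CPM (2.97 ± 0.15, adjusted p = 3.52e-12, edgeR) and COL1A1 from 2.06 and 4.04 to 27.9 and 28.02 CPM (3.21 ± 0.25). FN1, PRRX1, SNAI2 and CD44 rose, while VIM was not called (732 and 697 and 716 and 764 CPM) and ZEB1 fell (-0.78 ± 0.14). Of the 5 that fell, 3 still did without DMSO 1 or without both drugs 2. Of 7 fibroblast markers 6 were tested, 5 rose (among them LUM, 8.33 and 5.38 to 39.0 and 37.5 CPM) and PDGFRA fell, and their summed level went from 209.9 and 211.9 CPM to 579.8 and 544 CPM, mostly COL3A1. Of 8 Schwann and glial markers 6 were tested and 4 rose (ERBB3 and CDH19 among them), the list summing to 5.23 and 4.04 CPM and then 24.4 and 21.9 CPM. SOX10, which defines that lineage, was too low to be tested. It stood at 0.663 and 0.42 CPM under DMSO and at 0.147 and 0.0687 CPM under both drugs. The treated values lie under the level of 3 counts in those libraries (0.22 and 0.206 CPM). The summed endothelial markers (5, of which TEK, CDH5 and KDR rose) went from 1.69 and 1.35 to 3.74 and 5.42 CPM; without DMSO 2 the adjusted p of CDH5 was 0.0515, and without DMSO 1 that of KDR was 0.0992 and without both drugs 2 0.0897. Epithelial markers (7) summed to 1.55 and 0.925 and then 3.89 and 3.91 CPM; of 4 tested EPCAM rose (0.147 and 0.252 to 2.79 and 3.23 CPM) and KRT19 fell, to 0, a call lost without DMSO 1 (adjusted p 0.306). Haematopoietic markers (7) summed to 5.01 and 5.04 and then 9.46 and 10.4 CPM, with HBA1 at 0 in all 4 libraries. The endothelial marker KDR also missed the threshold by DESeq2's Wald test (adjusted p 0.068). The part of other cell types in the matrix genes was not tested.

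BMP and TGF-beta pathway genes rose in 25 of 41 cases and fell in 2 (median 0.79). The antagonists FST, follistatin (3.02 and 2.94 to 29.7 and 29.9 CPM, 3.32 ± 0.20), GREM1 and CHRD rose, and so did the ligands BMP4, BMP5, TGFB2 and TGFB3. Among targets, MSX1 went from 8.18 and 6.64 to 45.5 and 56.3 CPM (2.77 ± 0.20, adjusted p = 8.73e-10, edgeR), ID1 from 103 and 84.7 to 167 and 208 CPM (0.99 ± 0.13) and ID3 from 86.0 and 75.4 to 185 and 231 CPM (1.37 ± 0.14). SMAD3 and INHBE fell, INHBE not without DMSO 2 (adjusted p 0.0639) or both drugs 1 (0.0536). EPZ-6438 alone raised 7 members and DAC alone 20.

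Genes described as tumour suppressors that EZH2 represses rose in 12 of 16 cases and fell in none (median 1.33). CHD5, a chromatin remodeller, went from 2.43 and 1.35 to 17.2 and 17.1 CPM (3.15 ± 0.26, adjusted p = 5.93e-09, edgeR), CLU, clusterin, from 16.3 and 10.2 to 60.6 and 71.7 CPM (2.31 ± 0.17) and DACT3, a Wnt inhibitor, from 7.29 and 9.25 to 25.4 and 29.7 CPM (1.74 ± 0.16). EPZ-6438 alone raised 3 of them and DAC alone 11. Developmental regulators that Polycomb binds in many cell types stood closer to the background in the share that rose, 23 of 70 tested (32.9%). Only 6 fell (8.57%, against 20.4% of all tested genes), and 48 of 118 were too low to test. NEUROD2 (0.737 and 1.09 to 7.92 and 8.79 CPM, 3.19 ± 0.33) and TBX3 (0.98 ± 0.13) were among those with the smallest adjusted p; of the 6 that fell, such as ALX4, 3 still did without both drugs 1.

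Transcripts of the enzymes that the drugs act on were mostly lower or not called. DNMT1, the maintenance methyltransferase, went from 328 and 303 to 203 and 187 CPM (-0.69 ± 0.13, adjusted p = 0.000116, edgeR) and its partner UHRF1 from 312 and 336 to 136 and 134 CPM (-1.27 ± 0.11). DNMT3A (136 and 128 and 122.5 and 112 CPM) and DNMT3B (33.2 and 42.5 and 34.8 and 32.5 CPM) were not called. In the DNA methylation list 1 of 18 rose, ZBTB38 (1.29 ± 0.20), and 6 fell, including the remodeller HELLS (-1.08 ± 0.16). EZH2 went from 190.1 and 189 to 129 and 129 CPM (-0.56 ± 0.10, adjusted p = 0.000147), and its partners EED (-0.60 ± 0.13) and SUZ12 (-0.76 ± 0.13) fell with it. Over the Polycomb list 4 of 36 rose and 12 fell, among the latter PHF19 (-1.19 ± 0.13), PCGF6 (-0.89 ± 0.13) and RBBP7 (-0.74 ± 0.10). The 4 were CBX7, PCGF5, KDM6B and EZH1; 2 rose without DMSO 1 or without both drugs 1 (adjusted p of CBX7 0.0584 without both drugs 1 and 0.128 without DMSO 2, and of KDM6B 0.0834 without DMSO 1). EZH1, the other methyltransferase of the complex, stood at 59.8 and 58.5 and 77.0 and 70.2 CPM (0.32 ± 0.12, adjusted p = 0.0376), with adjusted p of 0.102, 0.157 and 0.12 without DMSO 1, DMSO 2 and both drugs 1. With the 4 libraries alone EZH1 was not called either (adjusted p 0.0519, edgeR). Of 9 tested genes that take up or process nucleosides, 2 rose (22.2%) and 4 fell (44.4%). DCK, which activates DAC by phosphorylation, fell from 53.1 and 45.5 to 31.2 and 25.0 CPM (-0.81 ± 0.16), DCTPP1 fell (-0.94 ± 0.13), and RRM2B rose (1.16 ± 0.15).

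The genes with the lowest log2 changes at a usable mean level rest mostly on few counts. Of the 12 named, 9 had between 5 and 17 counts over both DMSO libraries and at most 3 under both drugs: KRT19, KIAA0125, ZNF630, ZNF257, MYO1E, ASPDH, FLT1, XKR5 and AMHR2. FLT1, a VEGF receptor, had 5 and 6 counts under DMSO and 0 and 2 under both drugs. Each of the 9 lost its call without at least 1 library: 7 without DMSO 1 (adjusted p 0.0506 to 0.741), 4 without DMSO 2 (0.0729 to 0.824), 7 without both drugs 1 (0.0507 to 0.218) and 6 without both drugs 2 (0.0565 to 0.175). The other 3 were TERT, HIST1H2BF and HIST1H2BL.

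**Figure D4:**
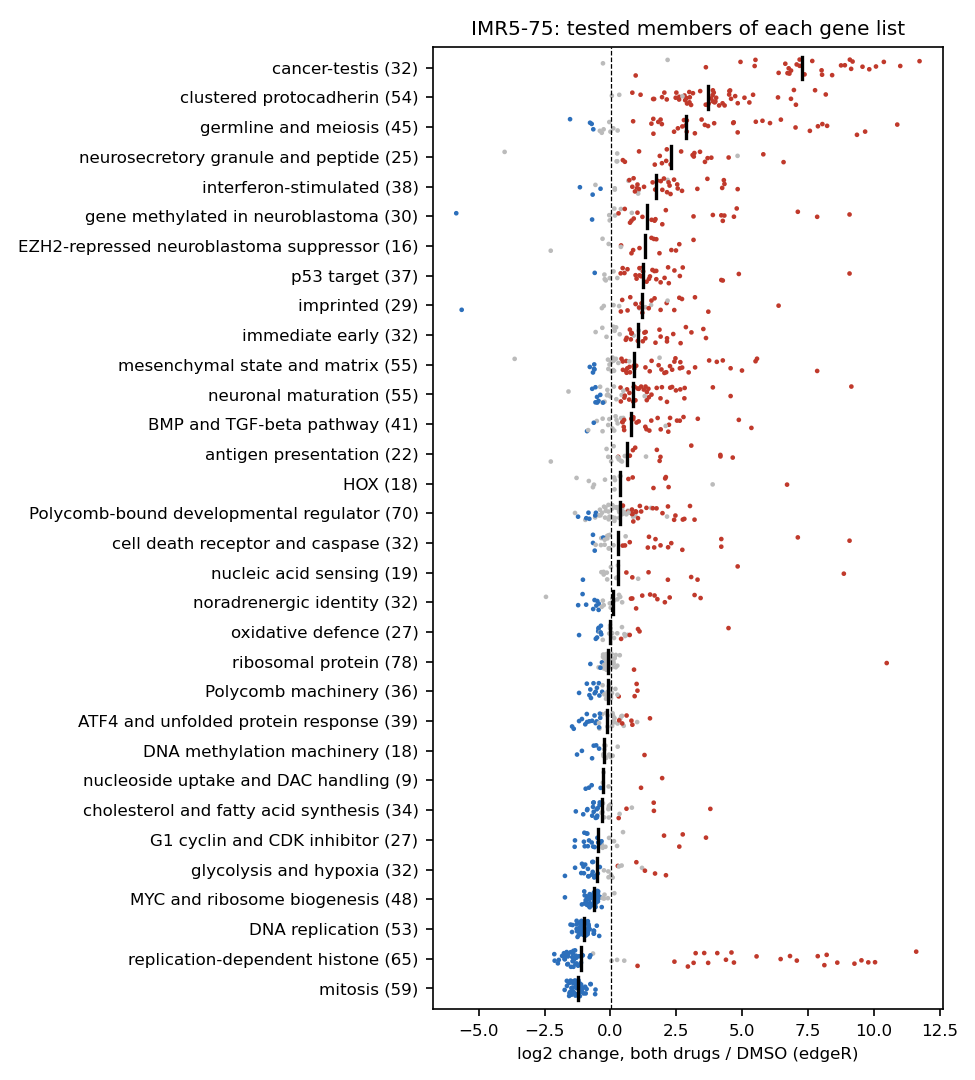
Log2 change under both drugs against DMSO in IMR5-75 (x axis) of every tested member of each gene list (rows, number tested in brackets); red members rose, blue fell, grey were not called, black bars are list medians and the dashed line is the median of all tested genes. Cancer-testis and protocadherin genes lie far to the right, and mitosis and replication genes all to the left.

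What both drugs gave was set beside each drug alone, all against the same 2 DMSO libraries. DAC alone changed 5374 genes (33.7%; 3178 higher, 2196 lower) and EPZ-6438 alone 316 (1.98%; 261 higher, 55 lower). The count for EPZ-6438 was 32 without DMSO 2 and 60 and 111 without its own replicates 1 and 2. The single-drug changes were then added on the log2 scale and the change under both drugs was tested against that sum, a test of whether the drugs combine other than by multiplying their folds. Only 4 of 15967 genes differed (0.0251%), 2 above and 2 below the sum, and 1107 did at an unadjusted p under 0.05. The simulation described below covered both drugs against DMSO only. How many departures from the sum this test misses is therefore not known, and the low count does not show that the folds multiply. DESeq2's Wald test called 6 and the fit with no filter 84 (47 above, 37 below). Without DMSO 1 the count was 10, without DAC 1 or EPZ-6438 2 it was 2 and without EPZ-6438 1 it was 1. FOS, a subunit of the AP-1 factor, was higher after DAC (28.4 and 45.3 CPM) and after EPZ-6438 (22.0 and 26.3 CPM) than after both (12.5 and 18.1 CPM), with 2.36 and 4.62 CPM in DMSO. Its change under both drugs lay -4.08 ± 0.44 from the sum (log2, adjusted p = 0.000137, edgeR). ADCYAP1 was also below its sum (-1.64 ± 0.26, adjusted p = 0.0138), at 17.2 and 15.7 CPM after DAC, 9.37 and 7.78 after EPZ-6438 and 30.4 and 33.4 after both. RGS4, which shuts off G protein signals, had 10.5 and 17.9 CPM in DMSO, 83.5 and 97.2 after DAC, 9.29 and 7.47 after EPZ-6438 and 157 and 159.6 after both (1.56 ± 0.25 above the sum, adjusted p = 0.0167). NEFM had 129 and 132 CPM after DAC, 38.3 and 38.8 after EPZ-6438 and 301 and 255 after both (1.29 ± 0.19, adjusted p = 0.0071). FOS passed in every alternative run, whereas the others did not when the 8 IMR5-75 libraries were fitted alone (adjusted p of 0.165 for ADCYAP1, 0.217 for RGS4 and 0.0722 for NEFM). They also missed it without single libraries: ADCYAP1 without DMSO 1 (0.0599), DMSO 2 (0.258), both drugs 1 (0.074), DAC 1 (0.0632) or EPZ-6438 1 (0.186), RGS4 without DMSO 2 (0.351), DAC 1 (0.0632), EPZ-6438 1 (0.0674) or EPZ-6438 2 (0.229), and NEFM without EPZ-6438 1 (0.0674) or EPZ-6438 2 (0.0555).

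**Figure D5:**
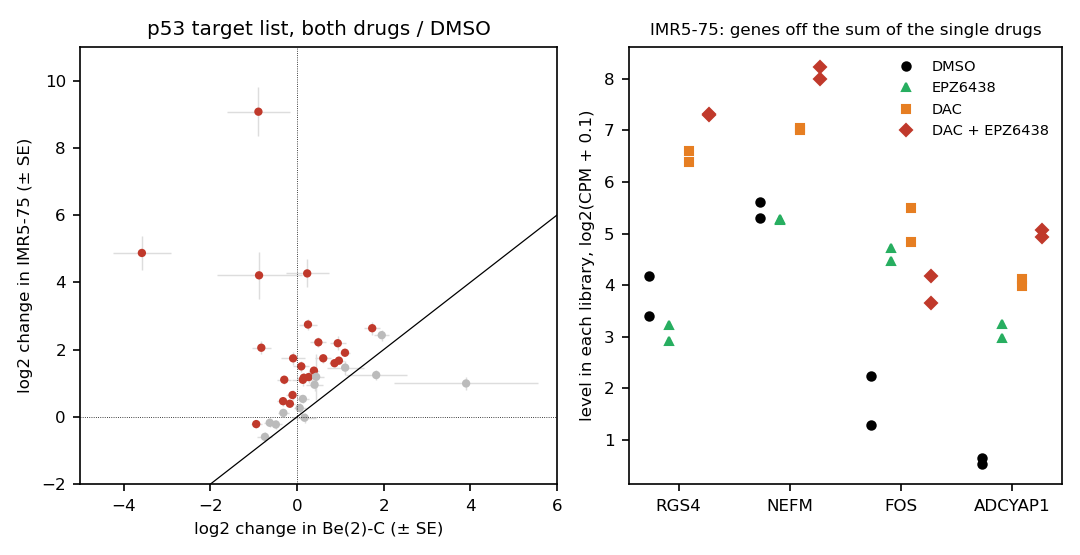
Left, log2 change (± SE) of the 37 tested p53 target genes under both drugs in Be(2)-C (x axis) and IMR5-75 (y axis), with the line of equal change; red genes differ between the lines by the interaction test and lie above the line. Right, level of RGS4, NEFM, FOS and ADCYAP1 in each IMR5-75 library, as log2(CPM + 0.1), under DMSO, EPZ-6438, DAC and both drugs; FOS is lower with both drugs than with either alone.

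In Be(2)-C, whose libraries are separate, both drugs changed 3777 genes (23.7%; 2113 higher, 13.2%, and 1664 lower, 10.4%). Without Be(2)-C DMSO 1, DMSO 2 or both drugs 2 the number was 2100, 2199 or 2241. The change differed between the lines for 1766 genes by the interaction test (11.1%): 1071 were more positive in IMR5-75 (6.71%) and 695 more negative (4.35%). That total was 1074, 1156 and 1130 without Be(2)-C DMSO 1, DMSO 2 and both drugs 1, and the more negative genes numbered 286 and 415 without IMR5-75 both drugs 2 and DMSO 1 and 303, 363 and 360 without the 3 Be(2)-C libraries just named. Among p53 targets 24 of 37 were more positive in IMR5-75 and none more negative; in Be(2)-C 8 rose and 6 fell. CDKN1A had 7.06 and 11.01 CPM under DMSO and 11.2 and 10.27 under both drugs in Be(2)-C, and its changes differed by 2.49 ± 0.25 (adjusted p = 4.12e-07, edgeR). Protocadherins were more positive in 36 of 54 cases and neurosecretory genes in 13 of 25 (1 more negative), whereas cancer-testis genes were in 3 of 32. Of these, 18 protocadherins, 4 neurosecretory and 27 cancer-testis genes had at most 3 counts over both IMR5-75 DMSO libraries. They could hardly fall there, so these counts are a description only. Mitosis genes fell further in IMR5-75 in 21 of 59 cases, replication genes in 3 of 53. Of the glycolysis list 11 of 32 were more negative and 3 more positive. LDHA had 36.7 and 38.8 and then 48.0 and 46.8 CPM in Be(2)-C (difference -2.06 ± 0.15, adjusted p = 5.59e-09).

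Of the 65 histone genes 21 were more positive in IMR5-75 and none more negative. Part of this split was fixed in advance, since 16 of the 65 had at most 3 counts over both IMR5-75 DMSO libraries. Such genes could hardly fall in that line. HIST1H1B, almost silent in IMR5-75 under DMSO, stood at 1244 and 1181 CPM in Be(2)-C and fell there to 415 and 386 CPM. HIST1H1D (721 and 689 to 259 and 237 CPM), HIST1H3A (221 and 204 to 101 and 85.9) and HIST1H4L (173 and 142 to 62.7 and 46.2) also fell there. In the other direction, the growth factor receptor PDGFRA fell in IMR5-75 (139 and 144 to 74.1 and 58.4 CPM) and rose in Be(2)-C (0.634 and 0.734 to 18.4 and 19.6 CPM; difference -5.87 ± 0.27, adjusted p = 6.17e-12, edgeR). H19 rose in both lines and further in Be(2)-C (2.17 and 1.47 to 82.2 and 99.6 CPM; difference -3.495 ± 0.28).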

How the data were processed

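Ribosomal RNA-depleted total RNA of 16 libraries was sequenced with 50 bases single-end after a strand-specific library kit, per the labels. The authors deposited 1 table of raw read counts per gene; the submitters' processing notes name TopHat2 2.0.5, HTSeq 0.5.3p9, DESeq2 and build hg19. Neither the annotation nor how strand was handled in counting is stated in these sources, so antisense and overlapping genes are uncertain. All 16 libraries in 8 groups were fitted together with edgeR 4.0.16 (quasi-likelihood, TMM scaling, filterByExpr, R 4.3.3, 8 residual degrees of freedom, common biological coefficient of variation 9.88%). The threshold was an adjusted p (Benjamini-Hochberg) of 0.05 over the 15967 tested genes; p-values in the text are from this fit unless another tool is named. The contrasts were both drugs against DMSO, each drug against DMSO, both drugs against the sum of the single drugs, and the difference between lines. The value after ± (SE in the figure) is the size of the log2 change divided by the square root of its F statistic. It rests on the spread pooled over all 8 groups, not on the 2 libraries of a group alone. No set test was run. Interval and floor values cover counting error only: intervals are exact binomial at 95%, and a count of 0 is bounded by 3 counts. On counts simulated for both drugs against DMSO (15351 genes), the fit recovered 38.8%, 64.2% and 95.5% of genes changed 1.5-, 2- and 4-fold, and 7.04% of its calls were false. The simulation changed 67, 67 and 66 genes by these folds, up or down at random, and gave all groups otherwise the same mean. In the data 46.2% of tested genes were called and the larger changes were mostly upward, so these shares need not hold there. No 2 libraries of a group agreed within counting noise.

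Alternatives were DESeq2 size factors, DESeq2 1.42.0's Wald test, no filter, an adjusted p of 0.01, the replicate number as a block, IMR5-75 or the 4 libraries alone, and leaving out each library. The labels do not say that replicate numbers pair libraries, so the block is not in the main fit.

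The comparison and the gene lists were chosen with earlier results of these data known. Genes were named by rule: the 12 highest and 12 lowest log2 changes at a mean log2 CPM of at least 1, the 10 highest treated levels among genes with at most 3 DMSO counts, in each list with 3 or more called members the 3 of smallest adjusted p, the drug targets, MYCN and CDKN1A, and the 5 highest and lowest in the other 2 tests. All others, and the promoters shown, were chosen after their values were seen. Some genes that the rule names are not reported here. Promoters are from RefSeq GRCh38.p14; no deposited coordinates were used. Symbols renamed since hg19 were matched by the older name for 10 list members.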

Additional observations from a re-analysis of the deposited data

Results flagged for a closer look

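The response to both drugs was tested for a difference between the lines, and 1766 genes differed. The values here are the IMR5-75 log2 change minus the Be(2)-C log2 change, from edgeR's quasi-likelihood test. Among the genes with the most positive differences, L1TD1 differed by 12.10 ± 3.53 (adjusted p = 0.0332), a value that rests on 0.0906 and 0 CPM under DMSO and 0 and 0 CPM under both drugs in Be(2)-C, and its adjusted p was 1.00 without Be(2)-C DMSO 1, 0.0641 without both drugs 1 and 0.0501 without both drugs 2 of that line. The histone genes HIST1H1B (11.38 ± 0.48, adjusted p = 2.67e-12), HIST1H3A (10.72 ± 0.91), HIST1H4L (10.14 ± 0.83) and HIST1H1D (9.37 ± 0.42) follow; all 4 rose in IMR5-75 from at most 2 counts over both DMSO libraries and fell in Be(2)-C, so the fitted sizes depend on the prior count. Among the most negative differences were PDGFRA (-5.87 ± 0.27, adjusted p = 6.17e-12) and F2R, the thrombin receptor (-5.64 ± 0.64, adjusted p = 2.47e-06), which went from 93.4 and 81.8 to 63.8 and 57.5 CPM in IMR5-75 and from 0 and 0.0918 to 2.22 and 1.57 CPM in Be(2)-C. KRT19 differed by -7.81 ± 1.57 (adjusted p = 0.0021), KIAA0125 by -5.49 ± 1.64 (0.0351) and CYR61 by -5.42 ± 1.54 (0.0265). KRT19 was no longer called without IMR5-75 DMSO 1 (0.31). KIAA0125 was not called without any of IMR5-75 DMSO 1 (0.134), both drugs 1 (0.116) and both drugs 2 (0.157) or Be(2)-C DMSO 1 (0.057), DMSO 2 (0.0578) and both drugs 2 (0.052), and CYR61 without any 1 of the 4 Be(2)-C libraries (0.0708 to 0.116). Single libraries also moved sizes: without IMR5-75 DMSO 1 and DMSO 2 the difference was 15.2 and 11.3 for L1TD1 (9.65 without Be(2)-C DMSO 1), 13.6 and 10.6 for HIST1H1B, 12.5 and 8.54 for HIST1H1D and -5.14 and -8.61 for KRT19, without IMR5-75 both drugs 2 it was 10.1 for HIST1H3A, and without Be(2)-C DMSO 1 and DMSO 2 it was -4.78 and -8.085 for F2R. With 2 libraries a group, no single library was tested as an outlier.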

How the results depend on the processing

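The count of 7370 genes was 7236 with DESeq2 size factors, 7444 with no filter, 6646 with the Wald test, 7130 with IMR5-75 fitted alone, 7034 with the 4 libraries alone, and 5775 to 6101 without 1 library; 75.4% to 79.4% of the calls were then kept. With the replicate block it was 7152, and no conclusion on pairing follows, since same-numbered libraries of the groups correlated in their deviations between -0.25 and 0.229 over all pairs of groups. Against the sum of the single drugs 84 genes were called with no filter (47 above, 37 below), 1 with IMR5-75 fitted alone (0 above, 1 below), 4 below by the Wald test, and 1 to 10 without 1 library (above 0 to 3, below 1 to 7). The difference between lines ranged from 1074 to 1541 without 1 library (more negative: 286 to 573). EPZ-6438 alone called 740 genes with no filter and 32 to 344 without 1 library, and both drugs in Be(2)-C 2100 to 2648. Lists were less stable where few members were called. Oxidative defence rose in 8 members with DESeq2 size factors, 9 with no filter and 8 by the Wald test, and germline genes fell in 2 by the Wald test. Without 1 library the members that fell numbered 5 to 8 (oxidative defence), 2 to 6 (neuronal maturation), 3 to 6 (Polycomb-bound regulators), 2 to 3 (germline), 3 to 4 (mesenchymal) and 1 to 3 (ribosomal protein), and those that rose 5 to 8 (nucleic acid sensing), 7 to 10 (antigen presentation), 3 to 7 (ATF4) and 2 to 4 (Polycomb machinery). IGF2 ranged from -6.56 to 0 (log2 change). For the log2 changes and differences of named genes, 237 in all, 2262 of 2387 values under alternatives kept their direction and side of the threshold, 13 of 6 genes that were not called changed sign without a call (TH 3.49 without DMSO 1, against -2.45), 108 lost the call, 3 gained it and 1 (IGF2 without DMSO 1) came to 0.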

Other observations

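Further gene groups are read against the background of 25.7% higher and 20.4% lower. Of 18 tested HOX genes 7 rose and none fell (median 0.37), 4 of them in the HOXD cluster: HOXD13, which patterns limbs and the hind end of the body axis, went from 58.6 and 54.4 to 90.3 and 91.1 CPM (0.68 ± 0.12), HOXD10 from 2.28 and 2.61 to 13.9 and 8.72 CPM and HOXD11 from 5.16 and 4.96 to 15.3 and 16.2 CPM. Of 78 ribosomal protein genes 2 rose (2.56%) and 3 fell (3.85%), 1 of the 3 without both drugs 1. RPS27L, a stress-induced copy, rose from 108 and 104 to 203 and 192 CPM (0.90 ± 0.13) and RPL39L fell from 44.3 and 50.8 to 24.2 and 31.8 CPM (-0.76 ± 0.15).

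Metabolic and stress lists went in both directions. Of 34 genes of cholesterol and fatty acid synthesis 16 fell and 5 rose: SCD, a desaturase, went from 542 and 531 to 275 and 251 CPM (-1.03 ± 0.10), and STARD4, a sterol carrier, rose from 39.6 and 41.1 to 140.5 and 113 CPM (1.65 ± 0.16). Of 39 ATF4 and unfolded protein response genes 15 fell and 6 rose (3 without DMSO 1); PHGDH, the first enzyme of serine synthesis, fell from 145 and 160.1 to 53.9 and 57.5 CPM (-1.45 ± 0.19) and SESN2, which is also a p53 target, rose from 31.5 and 33.6 to 87.5 and 96.9 CPM (1.502 ± 0.17). Of 27 oxidative defence genes 9 fell (fewer without both drugs 1) and 5 rose (8 with DESeq2 size factors, 8 by the Wald test and 9 with no filter). Those that rose include NQO1 (91.4 and 64.0 to 157 and 165 CPM, 1.05 ± 0.17), GPX3 (1.11 ± 0.21) and the metallothionein MT1E (0.0737 and 0 to 0.88 and 1.30 CPM). Nucleic acid sensing genes rose in 8 of 19 cases (5 without DMSO 2) and fell in 1. The adaptor MYD88 and the ligase TRIM56 went from 0.147 and 0.504 to 4.33 and 2.13 CPM and from 0.0737 and 0.168 to 0.807 and 1.30 CPM.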
